A study of Mus musculus with 2 samples.

Results

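Among 11214 bone marrow cells of 2 libraries, 136 carried Flt3 together with early genes of the lymphoid and B lineages while holding almost no transcripts of committed B-lineage cells. They were chosen by their unique molecular identifiers (UMIs, each counting 1 captured transcript). A gated cell had at least 1 Flt3 UMI, at least 2 UMIs in the sum of Ly6d, Blnk and Ebf1, at most 3 UMIs in the sum of Cd79a and Vpreb3, and fewer than 10 UMIs in the sum of Vpreb1, Vpreb3, Igll1 and Ebf1. The gate found 120 cells in the naive library and 16 in the Listeria library. All cells came from femora and tibiae of wild-type C57BL/6J mice that were 6 to 8 weeks old, and the submitters label them as haematopoietic stem cells (HSCs). Naive mice had no treatment, and the other mice had been challenged with Listeria monocytogenes 6 weeks earlier. Each group is 1 library, and the number of mice behind each is not given in the labels. No difference between the libraries could therefore be tested against replicate spread, and a difference between mice, libraries and treatments cannot be told apart.

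Lymphoid specification in the marrow begins in multipotent cells that carry the cytokine receptor FLT3. Terminal transferase (Dntt), the recombinase gene Rag1 and the interleukin-7 receptor (Il7r) then come on, followed by the surface protein LY6D and by EBF1, the transcription factor that opens the B-cell programme. BLNK is an adaptor of B-cell receptor signalling, and commitment is marked by PAX5 and the surrogate light chain genes Vpreb1, Vpreb3 and Igll1. Plasmacytoid dendritic cells, which make type I interferon, are also in part derived from FLT3-positive, LY6D-positive progenitors and carry Siglech, Irf8 and Tcf4.

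Among Ly6d, Ebf1, Flt3, Blnk and Dntt, only Blnk and Dntt share a chromosome. On the GRCm38 assembly, Ly6d is at chr15:74762056-74763620 on the minus strand, Ebf1 at chr11:44617317-45008091 on the plus strand, and Flt3 at chr5:147330741-147400489 on the minus strand. Blnk is at chr19:40928927-40994535 on the minus strand and Dntt at chr19:41029275-41059525 on the plus strand, so their starts face each other across 34740 bases.

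The libraries held 64619150 (naive) and 43895966 (Listeria) UMIs, and 6375 and 4839 barcodes passed as cells, with medians of 6972 and 7239 UMIs. Of the cell barcodes, 14 occurred in both libraries, and none of these was a gated cell. The gated cells were of ordinary depth, with medians of 6961 and 7757 UMIs and ranges of 3169 to 17183 and 5106 to 14106. They were compared within each library with 2 other gates. Progenitors (220 naive and 131 Listeria cells) had Flt3 and Dntt, none of Ly6d, Blnk and Ebf1, and the same B-lineage limits. Their median depths were 6670.5 and 7518 UMIs. B-lineage cells (1385 and 389) had at least 10 UMIs of Vpreb1, Vpreb3, Igll1 and Ebf1, at median depths of 9340 and 9860 UMIs. All levels below are counts per 1000000 UMIs (CPM), summed over the cells of a gate in 1 library, and intervals are exact 95% intervals that cover counting error only.

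The gated cells made up 1.88% of naive cells (interval 1.56% to 2.25%) and 0.331% of Listeria cells (0.189% to 0.536%). The log2 ratio of the Listeria over the naive share was -2.51 (-3.36 to -1.75). The shares of all Flt3 cells lay closer together, at 26.8% of naive (25.7% to 27.9%) and 22.1% of Listeria cells (21% to 23.3%). Flt3 cells under both B-lineage limits were 22.2% of naive (21.2% to 23.2%) and 20.5% of Listeria cells (19.4% to 21.7%), and the gated cells were 8.49% of these in the naive library (7.09% to 10.1%) and 1.61% in the Listeria library (0.923% to 2.6%). Progenitors were 3.45% (3.02% to 3.93%) and 2.71% (2.27% to 3.2%). B-lineage cells were 21.7% and 8.04%. How the labelled HSCs were enriched is not given in the labels, and an enrichment step can set such shares.

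**Figure D1:**
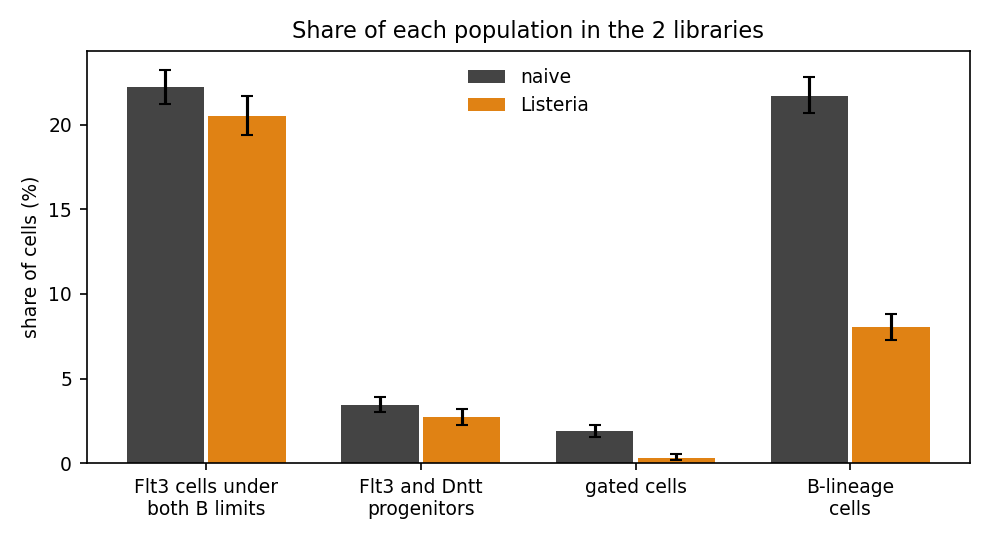
Share of all cells (%, vertical axis from 0) that fell into each gate, in the naive (dark bars) and Listeria (orange bars) libraries, with exact 95% binomial intervals. Flt3 cells under both B-lineage limits stand at 22.2% and 20.5%, whereas gated cells stand at 1.88% and 0.331% and B-lineage cells at 21.7% and 8.04%.

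Free RNA in the droplets can give UMIs of these genes in cells that do not express them. Megakaryocyte-lineage cells, which should lack them, passed the Ly6d, Blnk and Ebf1 sum under both B-lineage limits in 4 of 248 naive cells (1.61%, 0.441% to 4.08%, median depth 10229 UMIs) and in 1 of 313 Listeria cells (0.319%, 0.00809% to 1.77%, median depth 10661 UMIs). Among Flt3 cells under both B-lineage limits the shares were 8.49% and 1.61%, and for the Listeria cells the intervals overlap. Barcodes with 1 to 50 UMIs, which hold free RNA, had 121 CPM Ly6d, 139.9 CPM Blnk and 289 CPM Ebf1 in the naive library and 38.7, 60.5 and 120.3 CPM in the Listeria library. The part of free RNA in the difference between the libraries was not tested.

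The values that chose the cells are a description and support nothing. A naive gated cell held from 1 to 9 Flt3 UMIs with a median of 2, from 0 to 52 Ly6d UMIs with a median of 2, from 0 to 12 Blnk UMIs with a median of 1, and from 0 to 6 Ebf1 UMIs with a median of 1. Ly6d was found in 73.3% of them, Blnk in 65% and Ebf1 in 51.7%. All 3 genes were found together in 25 cells, Ly6d with Blnk in 29, Ly6d with Ebf1 in 15 and Blnk with Ebf1 in 14, and 1 of them alone in 19 (Ly6d), 10 (Blnk) and 8 (Ebf1). No surrogate light chain UMI was seen in 102 of the 120. In the 16 Listeria cells, Ly6d was found in 50% (0 to 22 UMIs), Blnk in 81.2% (0 to 4) and Ebf1 in 56.2% (0 to 4), and none held a surrogate light chain UMI. At the threshold itself, the 20 naive cells with a sum of exactly 2 had 229 CPM Cd34 and 6.55 CPM Il7r, and the 128 naive Flt3 cells just outside, with a sum of 1, had 241 and 25.1 CPM. Dntt stood at 799 CPM inside and 281 CPM outside, and Cox6a2 at 157 and 63.7 CPM. In the Listeria library Il7r had the other order, with 102 CPM in the 5 cells inside and 16.4 CPM in the 32 outside.

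The label of early lymphoid progenitors before B commitment described only part of the cells. Of the naive gated cells, 74 of 120 (61.7%, 52.4% to 70.4%) held at least 2 UMIs of the plasmacytoid genes Siglech, Cox6a2, Cd300c and Klk1, against 10.5% of progenitors and 0.794% of B-lineage cells. In the Listeria library these shares were 50% (8 of 16, 24.7% to 75.3%), 6.11% and 0.257%. The sum rested more on Cox6a2 than on Siglech. Among the 74 naive cells, Cox6a2 was found in 94.6%, Siglech in 36.5% and Dntt in 75.7%. A list of 20 plasmacytoid dendritic cell genes took a median of 13.7 per 10000 UMIs in the naive gated cells, with a range from 0 to 196. In naive progenitors the median was 6.64, with a range from 0 to 204, so single progenitors reached as high. The values of the gated cells were skewed, and the 30 highest of the 120 cells lay above 24.5 per 10000. Genes of the labelled stem cells were present at lower levels than in progenitors. A list of 26 stem and multipotent cell genes took a median of 11.5 per 10000 UMIs in the naive gated cells and 28.3 in progenitors, and 12.3 and 32.7 in the Listeria library, and it summed to 1376 CPM against 3308 CPM and to 1416 against 3489 CPM. In the naive gated cells 1 of the 26, Slamf1, had no UMI, and in the Listeria gated cells 7 had none, among them Slamf1, Procr and Mecom. The cells are called by their gate for this reason.

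**Figure D2:**
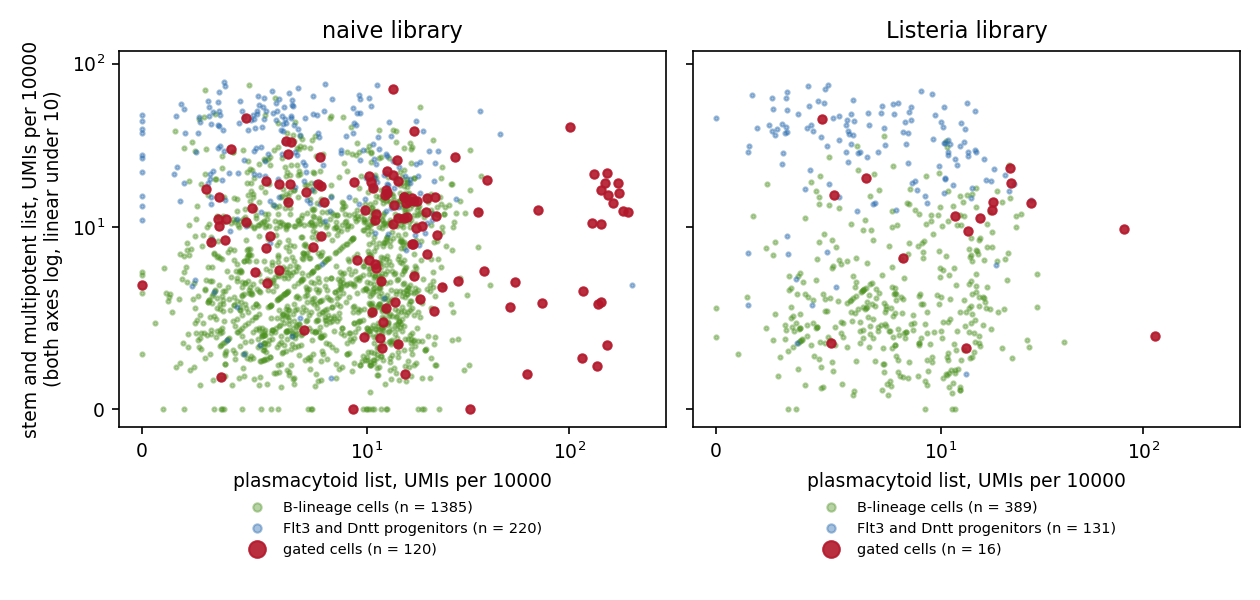
Each point is 1 cell, placed by its UMIs per 10000 from the plasmacytoid dendritic cell list (horizontal) and from the stem and multipotent cell list (vertical), on axes that are logarithmic above 10 and linear below. Gated cells (red) reach from the region of progenitors (blue) and B-lineage cells (green) to a separate group at the right, up to 196 for naive and 114 for Listeria cells.

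The gated cells richest in the plasmacytoid list carried other genes than the rest. These list-rich cells, 30 of 120 in the naive and 4 of 16 in the Listeria library, were set apart after the data were seen, by their list UMIs per 10000, so their levels of Siglech, Irf8, Bst2 and Cox6a2 are fixed by the choice. They held 98.4% of the naive gated cells' Siglech UMIs, 86.7% of their Irf8 and 61.1% of their Cox6a2. Among genes not on that list, they held 65.5% of the Ly6d UMIs, 93% of Lgals1, a galectin, and 88.4% of Tyrobp, a signalling adaptor of innate cells. They also held 86.8% of the Mki67 UMIs, a gene of cycling cells. They held 8.46% of Dntt, 4% of Cd34, 2.44% of Ebf1 and none of the 38 Rag1 UMIs. Of the Il7r UMIs, 27.1% were in the list-rich cells of the naive library, but none of 16 were in the 4 list-rich cells of the Listeria library.

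Counted by cells, Dntt was found in 36.7% of the list-rich cells and in 94.4% of the other 90 naive cells. Ebf1 was found in 10% and 65.6%, Rag1 in 0% and 27.8%, and Cd34, a glycoprotein of stem and progenitor cells, in 16.7% and 66.7%. Ly6d, Blnk and Il7r did not divide the naive cells in this way: they were found in 86.7% and 68.9%, in 76.7% and 61.1%, and in 40% and 30%. In the Listeria library Il7r was found in 0 of the 4 list-rich cells and in 50% of the other 12. The summed Ly6d level was nevertheless 1933 CPM in the list-rich cells and 392 CPM in the others. Cd7, a surface gene of T, innate lymphoid and plasmacytoid cells, stood at 529 CPM in the list-rich cells and 6.32 CPM in the others. In the Listeria library, the 2 gated cells with the most plasmacytoid UMIs held 22 Ly6d, 41 Irf8 and 65 Mki67 UMIs and no Dntt, Rag1, Ebf1 or Il7r UMI.

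The gate genes sorted the naive cells along the same line. The 62 cells with Ebf1 had 52.6 CPM Siglech, 167 CPM Irf8 and 71.7 CPM Rag1. The 39 cells with Blnk but no Ebf1 had 434 CPM Siglech, 1213 CPM Irf8 and 19 CPM Rag1, and the 19 cells with Ly6d alone had 169, 887 and 14.1 CPM. Rag1 was found in 32.3%, 10.3% and 5.26% of these cells. Il7r varied less, at 76.5, 98.1 and 49.3 CPM. Il7r and Siglech occurred together in 12 naive cells, Siglech alone in 18 and Il7r alone in 27, while 63 had neither.

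Against progenitors, the gated cells were compared over genes with a mean of at least 25 CPM and at least 20 UMIs over both gates, without the 9 genes that define the gates. A gene was called when it was past 2-fold. In the naive library 160 of 4879 genes were higher (3.28%) and 114 lower (2.34%), and in the Listeria library, with 16 cells, 436 of 5061 were higher (8.61%) and 298 lower (5.89%). In simulated counts, 0.235% of unchanged genes passed 2-fold either way at the naive depth and 9.64% at the Listeria depth. Calls in the Listeria library alone can therefore be counting error in large part. The simulation held counting error only, without differences between cells. It cannot show how many calls, in either library, rest on a few cells with many UMIs. Past 2-fold in both libraries were 73 of 4498 genes upward (1.62%) and 44 downward (0.978%). The median log2 ratio over all genes was 0.03 for naive and 0.08 for Listeria cells. The 2 gates differ in the sum of Ly6d, Blnk and Ebf1 and in the Dntt criterion, so these differences describe what goes with the gates.

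Of the 17 early lymphoid genes considered in both libraries, 6 were past 2-fold higher in both and none lower, and the list's medians were 0.85 and 1.04. Il7r stood at 79.9 CPM in naive gated cells against 23.7 CPM in progenitors, and at 119.8 against 17.9 CPM in the Listeria library. The log2 ratios were 1.75 (1.17 to 2.36) and 2.74 (1.69 to 3.78). Il7r was found in 32.5% of naive gated cells, 8.18% of progenitors and 1.21% of megakaryocyte-lineage cells. With every cell thinned to 2500 UMIs these shares were 18.3%, 2.73% and 0.403%. The receptor gene was thus above its background in the gated cells of both libraries, yet most single cells showed no UMI of it, with a highest value of 7.

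Ighm, whose locus is transcribed before rearrangement, was 851 CPM in naive gated cells and 282 CPM in progenitors, and 846 and 210.1 CPM in the Listeria library. The log2 ratios were 1.59 (1.42 to 1.76) and 2.01 (1.67 to 2.34), and 95.8% of the naive and all 16 Listeria gated cells held the transcript. In naive megakaryocyte-lineage cells it stood at 1199 CPM, of which 1 cell held 3077 of 3353 UMIs. Rag1 had 38 UMIs (43.4 CPM) in naive gated cells and 4 (2.43 CPM) in progenitors, a log2 ratio of 4.16 (2.68 to 6.11), and 5 against 3 UMIs in the Listeria library (3.73, 1.37 to 6.41). Its mean level is below the minimum set above, so Rag1 is not among the genes counted. Rag2, its partner, had no UMI in the naive gated cells.

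Ccr9, a homing receptor of lymphoid progenitors and plasmacytoid cells, was 164 against 21.9 CPM in the naive library and 112 against 11.3 CPM in the Listeria library, with log2 ratios of 2.91 (2.37 to 3.48) and 3.31 (2.12 to 4.54). Cnn3, an actin-binding protein, had log2 ratios of 1.66 and 1.37, Lsp1, a leukocyte actin-binding protein, 1.10 and 1.55, and Cd7 2.35 and 4.27. Notch1, the receptor that directs T-lineage choice, had 128 against 65.6 CPM in the naive library and 172 against 59.3 CPM in the Listeria library, with ratios of 0.96 (0.57 to 1.36) and 1.54 (0.78 to 2.25), of which the Listeria value was -0.05 in cells thinned before gating. Satb1, a chromatin organiser of lymphoid cells, had ratios of 0.58 and 1.13. Cd27 was nearly level, at -0.23 and 0.00.

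Stem and multipotent cell genes were lower in the gated cells. Of 16 considered in both libraries 9 were past 2-fold lower in both and none higher, and the medians were -1.35 and -1.28. Hlf, a transcription factor of stem cells, was 35.4 CPM in naive gated cells and 159 CPM in progenitors, and 44.9 and 168 CPM in the Listeria library, with log2 ratios of -2.17 (-2.76 to -1.63) and -1.90 (-3.37 to -0.75). With a gate sum of at least 1 the Listeria ratio of Hlf was 0.16. Meis1 had ratios of -1.35 and -1.65, Lmo2 -1.21 and -1.75, and Gata2 -2.46 and -1.69. Cd34 was 171 against 324 CPM in the naive library (-0.92, -1.19 to -0.66) and 135 against 444 CPM in the Listeria library (-1.72, -2.49 to -1.04). Kit, the stem cell factor receptor, had -1.46 and -0.95. Among genes of other lineages, Prtn3, a neutrophil protease, had -2.86 and -5.31 (31 and 1 UMIs in the gated cells), and Car2, a carbonic anhydrase of erythroid cells, -2.14 in both.

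Plasmacytoid dendritic cell genes gave the highest medians of any list, 2.74 and 2.24, and 9 of the 12 considered in both libraries were past 2-fold higher in both. Irf8, a transcription factor of dendritic cells and early B cells, was 661 against 83.8 CPM in the naive library and 524 against 39.6 CPM in the Listeria library, with ratios of 2.98 (2.71 to 3.26) and 3.73 (3.16 to 4.32). Cox6a2, a subunit of the respiratory chain, was 496 against 55.3 CPM and 247 against 45.2 CPM (3.17 and 2.45). Siglech, a surface lectin of plasmacytoid cells, was 209 against 10.9 CPM in the naive library, where the ratio was 4.26 (3.55 to 5.04). With 8 UMIs against none among Listeria cells, the ratio there was at least 4.41 when 0 is set at a floor of 3 UMIs over the gate. The other named genes with the highest naive ratios were Pclaf (4.37), Pld4 (2.93), Lgals1 (2.92), Mpeg1 (2.74), Ctsh (2.65), Atp1b1 (2.47) and Clec12a (2.45).

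The ratios over progenitors were also taken without the list-rich cells, a comparison added after the data were seen. The cells set aside were chosen by their plasmacytoid UMIs, so lower values of that list's genes, and of the list as a whole, follow from the choice and are a description. The progenitors were left whole, although 10.5% of the naive and 6.11% of the Listeria ones passed the sum of 4 plasmacytoid genes. The removal was thus on 1 side only. With cells passing that sum left out of both gates, the G2 and M phase list had medians of -0.10 (naive) and -0.48 (Listeria). In the other 90 naive and 12 Listeria cells, the ratios over progenitors were 1.77 and 3.23 for Il7r, 4.63 and 4.22 for Rag1, 1.38 and 1.91 for Ighm, 1.85 and 3.07 for Ccr9, 2.07 and 1.33 for Cnn3, and 1.18 and 1.31 for Notch1. Cox6a2 stayed high at 2.27 and 2.48, and so did Clec12a, a C-type lectin receptor, at 1.92 and 1.62. Siglech in the naive library was -1.21, and Bst2 was -0.41 and -0.79. Lgals1 was -0.45 and -1.35, and Mki67 was -1.41 and -0.14, so these genes changed sign without the list-rich cells. Lsp1 was 0.45 and 0.46, and Cd7 in the naive library was -2.24. Irf8 was 0.54 for naive and 2.18 for Listeria cells.

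As lists, the early lymphoid genes had 6 of 17 past 2-fold higher and none lower in the 90 naive cells, with a median of 0.35, and 6 of 16 in the 12 Listeria cells, with a median of 0.73. The naive genes were Notch1, Cnn3, Ccr9, Ighm, Il7r and Rag1, which passed the minimum level in these cells. Lsp1, Cd7 and Tcf4, past 2-fold higher with all naive gated cells, were not among them. Over all genes the shares higher were 2.23% and 7.97%, the shares lower 3.07% and 7.19%, and the medians -0.03 and 0.07. Stem and multipotent genes had 11 of 17 and 9 of 16 past 2-fold lower, with medians of -1.18 and -1.08. The plasmacytoid list, by which the cells were set aside, had 2 of 10 higher and 1 lower in the naive cells, with a median of 0.21, and 3 of 7 higher in the Listeria cells, with a median of 0.83, values that the choice itself lowers. Hlf was -1.85 and -1.41, Meis1 -1.03 and -1.16, and Cd34 -0.51 and -1.40.

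**Figure D3:**
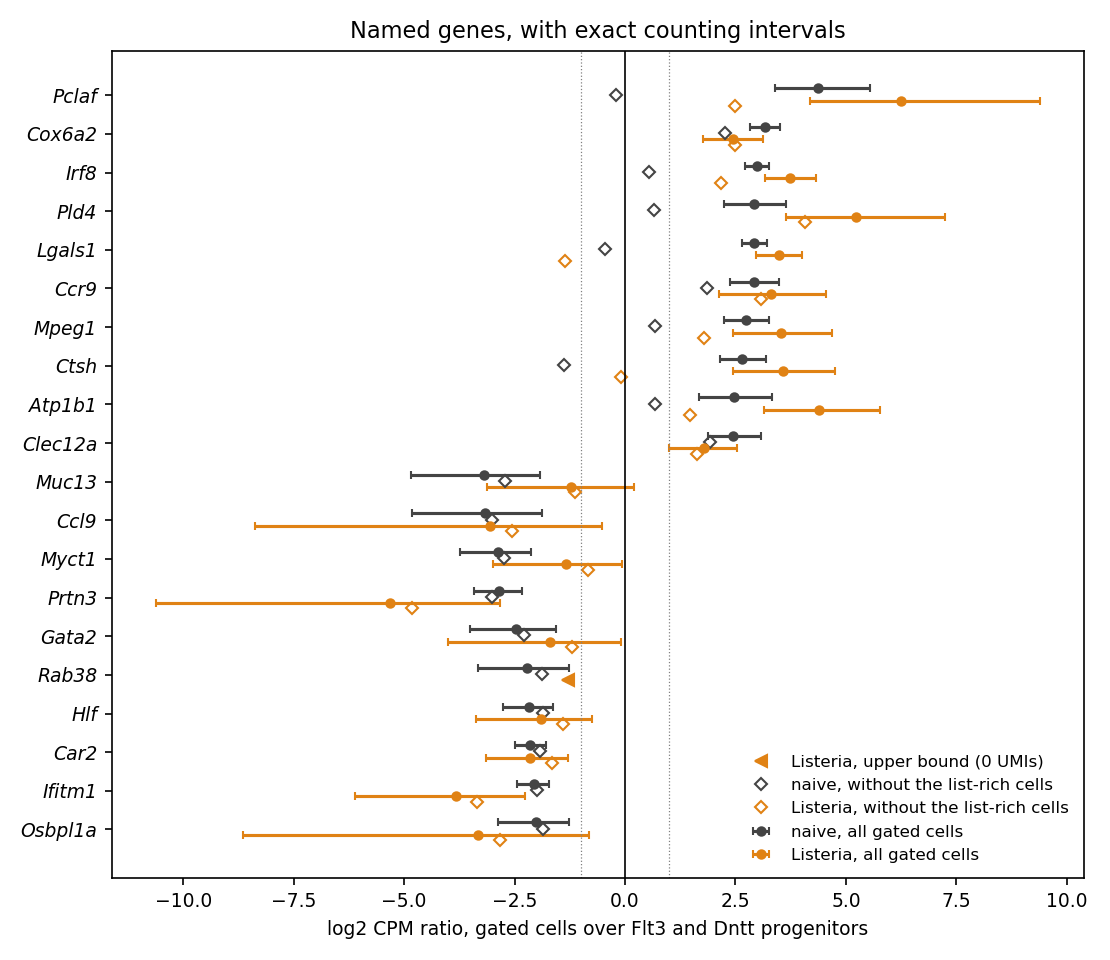
Log2 CPM ratio of gated cells over progenitors (horizontal) for the 10 genes with the highest and the 10 with the lowest naive ratios, with exact counting intervals for all gated cells (dots) and values without the list-rich cells (open diamonds). Diamonds of the lower genes lie near their dots, while those of Lgals1, Ctsh and Pclaf in the naive library lie at -0.45, -1.39 and -0.21.

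Transcription factors of the B lineage gave a mixed account. Of 19 considered in both libraries, Irf8 and Ets1, a factor of lymphocytes, were past 2-fold higher in both and none was lower, and the medians were 0.35 and 0.14. Ets1 was 74.2 against 26.7 CPM in the naive library (1.47, 0.90 to 2.06) and had 7 against 23 UMIs in the Listeria library (1.27, -0.19 to 2.54). Id2, an inhibitor of E proteins that takes part in innate lymphoid and dendritic fates, had ratios of 0.98 and 1.65. Pax5, the commitment factor, had 8 UMIs in the naive gated cells and none in the Listeria cells. Of 9 genes of the pre-B receptor and its signalling, Ighm alone was past 2-fold in both libraries, and of 3 genes of V(D)J recombination and end joining none was.

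Cycling genes varied within the gated cells. Mki67 was 164 CPM in naive gated cells and 79.6 CPM in progenitors, and 532 and 69.7 CPM in the Listeria library, with ratios of 1.05 and 2.93. In the naive cells it was found in 36.7% of the list-rich cells and in 10% of the others. In the Listeria library 2 cells held 83.3% of the UMIs of the G2 and M phase list. With every cell thinned to 2500 UMIs, 51.7% of naive gated cells (42.4% to 60.9%), 45% of progenitors and 92.1% of B-lineage cells held at least 2 UMIs of the S phase list, and unthinned the shares were 84.2%, 85% and 96.5%.

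**Figure D4:**
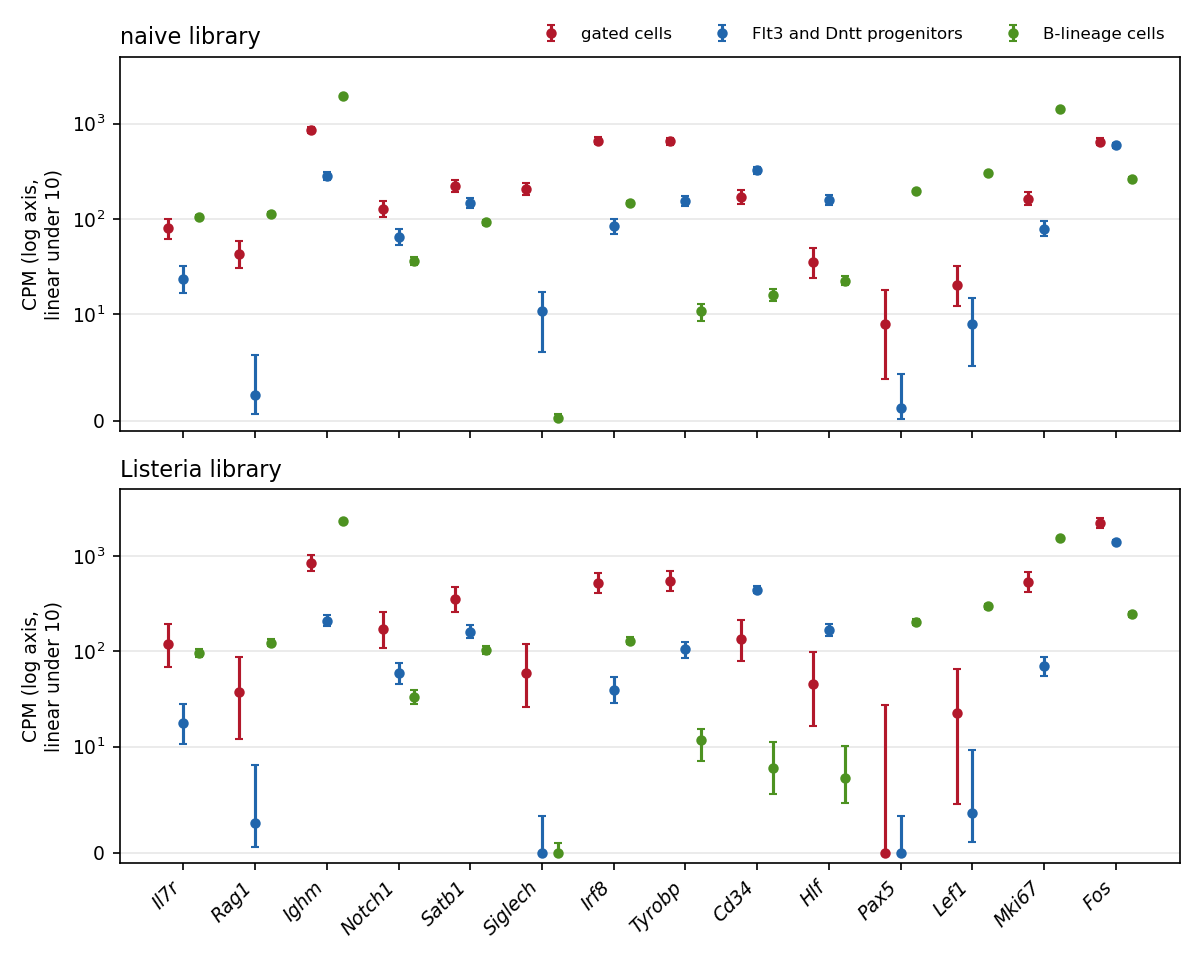
Levels in CPM (vertical, logarithmic above 10 and linear below) of 14 genes in gated cells, progenitors and B-lineage cells of each library, with exact counting intervals. Gated cells lie between the other 2 gates for Rag1, Ighm, Cd34, Hlf and Lef1 and above both for Siglech, Irf8 and Tyrobp, and Pax5 reaches 197 and 203 CPM in B-lineage cells against 9.13 and 0 in gated cells.

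Against B-lineage cells, 520 of 5011 genes were past 2-fold higher (10.4%) and 677 lower (13.5%) in naive gated cells, and 768 of 5164 (14.9%) and 709 (13.7%) in Listeria gated cells. In both libraries, 306 of 4672 were higher (6.55%) and 390 lower (8.35%). With trimmed-mean (TMM) scaling, which moved all ratios by -0.18 for naive and -0.34 for Listeria cells, the split was 195 higher and 621 lower. B-lineage cells were also deeper, and 20.3% of them in the naive library held Flt3. Pax5 was 9.13 against 197 CPM in the naive library (-4.43, -5.64 to -3.45) and without a UMI against 203 CPM among Listeria cells, a ratio of at most -3.18. Cd79b, a signalling chain of the B-cell receptor, had ratios of -5.32 and -5.28, and Lef1 -3.88 and -3.72. Of 23 B-lineage transcription factors 8 were past 2-fold lower in both libraries and 2, Irf8 and Id2, higher, with medians of -0.57 and -0.31.

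Il7r was close to the B-lineage level, at 79.9 against 106 CPM in the naive library (-0.40, -0.77 to -0.06) and 119.8 against 96.1 CPM in the Listeria library (0.32, -0.50 to 1.04). Rag1 was lower, at 43.4 against 112 CPM (-1.37) and 37.4 against 123 CPM (-1.72), and Ighm was -1.20 and -1.44. The direction of Ighm turned to 2.82 and 4.64 when cells were thinned to 2500 UMIs before gating and to 3.43 and 4.36 without the Flt3 criterion. The early lymphoid genes with higher levels in the gated cells of both libraries were Notch1 (1.81 and 2.36), Satb1 (1.25 and 1.77), Cd27 (2.81 and 4.36), a receptor of the tumour necrosis factor family, Ccr9 (5.59 and 5.85), Lsp1 (2.49 and 2.61), Emb (1.94 and 2.18) and Il2rg (1.57 and 1.86), the shared cytokine receptor chain. Together these were 7 of 17 higher, with 2 of 17, Rag1 and Ighm, lower. Cd34 was 171 against 16 CPM (3.42) and 135 against 8.03 CPM (4.07). Bcl2 and Bcl2l11, which act for and against survival, were both higher, with 2.01 and 2.66 for Bcl2 and 1.55 and 1.72 for Bcl2l11.

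Cell-cycle genes were lower than in the B-lineage cells. Of 26 S phase genes 25 were past 2-fold lower in both libraries, with medians of -2.19 in each, and of 27 G2 and M phase genes 15 were. In the naive library 25 of 27 G2 and M phase genes were lower, with a median of -2.48, and in the Listeria library 15 of 30, with a median of -1.02. Without the 2 Listeria cells richest in plasmacytoid UMIs, 25 of 28 were lower there, with a median of -2.32. Mki67 was 164 against 1440.3 CPM in the naive library (-3.13) and 532 against 1523 CPM in the Listeria library (-1.52). Plasmacytoid genes were higher here too, 9 of 12 in both libraries, with medians of 3.73 and 3.32. The genes with the highest naive ratios were Cox6a2 (7.13), Cybb (5.92), Tyrobp (5.89), Ccr9 (5.59), Mpeg1 (5.52) and Pld4 (5.46). Without the list-rich cells the list had 3 of 8 higher in the naive library, Cox6a2, Ccr9 and Runx2, with a median of 0.29, a value lowered by the choice of cells on this list, while 10.1% of all genes were higher and 18.2% lower.

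**Figure D5:**
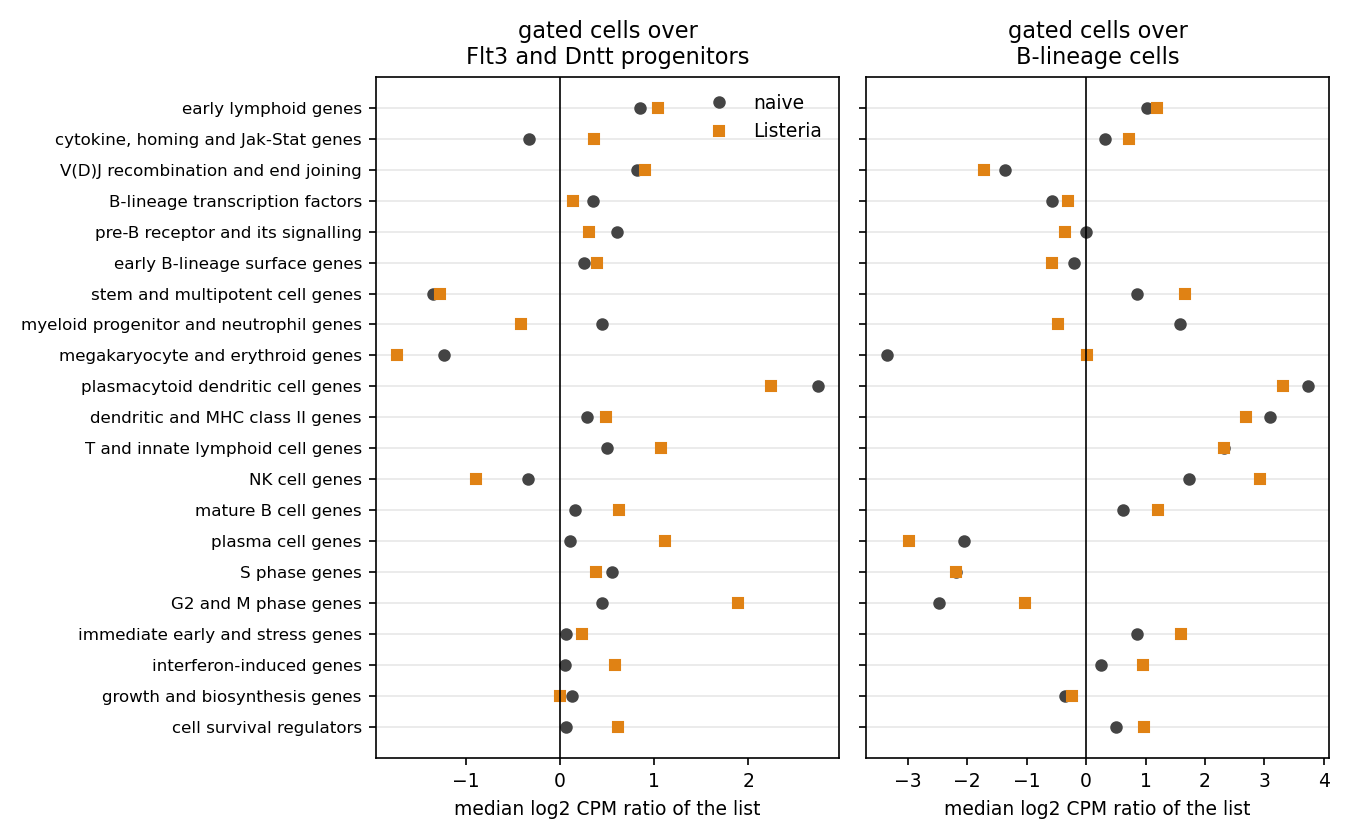
Median log2 CPM ratio of 21 gene lists in gated cells over progenitors (left) and over B-lineage cells (right), in the naive (dark circles) and Listeria (orange squares) libraries. The plasmacytoid list stands highest in both panels, at 2.74 and 2.24 on the left and 3.73 and 3.32 on the right, and S phase genes stand at -2.19 on the right in both libraries.

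By order of level, 35 of 4157 genes were past 2-fold above both other gates in both libraries and 1, Zfpm1, a cofactor of GATA factors, was below both. Some of the 35 fell below progenitors without the list-rich cells. Bst2 was then -0.41 and -0.79, Tyrobp -0.56 and -0.14, and in the naive library Ctsh -1.39, Ly6c2 -1.79 and Pmaip1 -0.34. Others, such as Cox6a2, Ccr9 and Clec12a, stayed past 2-fold above progenitors in both libraries. Above progenitors and below B-lineage cells were 10 genes, among them Ighm, Ets1, Pclaf, Mki67 and Top2a. Without the list-rich cells Mki67 and Top2a were below progenitors, with ratios of -1.41 and -0.14 for Mki67 and -1.43 and -1.52 for Top2a, and Pclaf, with 3 and 1 UMIs left, had -0.21 and 2.48. Below progenitors and above B-lineage cells were 6, Adgrl4, Cd63, Ctla2a, Lmo2, Meis1 and Neurl3.

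The cells closest to the gated cells in overall expression, with the gate genes left out, were Flt3 cells and cells with plasmacytoid genes. The 4 plasmacytoid genes were not left out, so they could help to place the cells and raise the share of neighbours that hold them. Of the 15 nearest neighbours of each naive gated cell, 40.7% were gated cells (1.88% of the library), 13.6% progenitors (3.45%), 1.78% B-lineage cells (21.7%) and 55.4% cells with at least 2 UMIs of the 4 plasmacytoid genes (2.62%). In the Listeria library these were 13.3%, 33.3%, 2.08% and 25.4%, against 0.331%, 2.71%, 8.04% and 0.599% of that library. The classes overlap, as 74 of the 167 naive cells with plasmacytoid genes were gated cells. Flt3 cells of any kind were 75.9% of the neighbours in the naive library (26.8% of the library) and 76.7% in the Listeria library (22.1%). Naive gated cells without plasmacytoid genes had 34.2% gated, 17% progenitor and 1.59% B-lineage neighbours. Of their neighbours, 38.3% were cells with plasmacytoid genes.

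Between the libraries, 377 of 4947 genes were past 2-fold higher in the 16 Listeria than in the 120 naive gated cells (7.62%) and 303 lower (6.12%), and 175 (3.54%) and 102 (2.06%) of these had intervals that leave out 0. TMM scaling moved the ratios by -0.23 and gave 178 higher and 428 lower. None of the 18 early lymphoid genes was past 2-fold in either direction, with a median of 0.08 against 0.09 over all genes. Il7r was 79.9 CPM in naive and 119.8 CPM in Listeria gated cells (0.59, -0.30 to 1.38), Ighm 851 and 846 CPM (-0.01, -0.31 to 0.28), and Irf8 661 and 524 CPM (-0.33, -0.71 to 0.03). Siglech was lower, at 209 and 59.9 CPM (-1.80, -3.03 to -0.79), and so was Cox6a2, at 496 and 247 CPM (-1.01, -1.56 to -0.49). Of 16 plasmacytoid genes 1 was past 2-fold higher and 4 lower.

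Fos, an immediate early gene, was the named gene with the most UMIs among those higher in the Listeria cells. It stood at 644 CPM in naive and 2209 CPM in Listeria gated cells, with a log2 ratio of 1.78 (1.57 to 1.99), and single Listeria cells held from 0 to 53 UMIs with a median of 11.5, against 0 to 44 with a median of 1 in naive cells. Fos also differed in progenitors, at 594 and 1404 CPM, and was 265 and 244 CPM in B-lineage cells. Klf2, a quiescence factor of lymphocytes, was 816 and 1798 CPM in gated cells (1.14, 0.92 to 1.35), 625 and 1236 CPM in progenitors, and 701 and 703 CPM in B-lineage cells. Of 22 immediate early and stress genes, 4 were past 2-fold higher in the Listeria gated cells and none lower, with a median of 0.44. Such genes also respond to cell handling, and its part was not tested. Of 17 G2 and M phase genes 13 were higher, with a median of 1.53, but without the 2 Listeria cells that held most of these UMIs 0 of 9 were higher and 4 lower, with a median of -0.71. The other genes with the highest ratios, Mcm3ap (2.13), Sgf29 (2.13), Mid1 (2.04), Utp11 (1.78) and Pou2f2 (1.76), rest on few Listeria UMIs, 15 in the case of Pou2f2.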

How the data were processed

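The authors deposited UMI counts, not normalized, for 31053 genes in every barcode, per the file headers. Cell Ranger 3.0.2 and build mm10 are named in the submitters' processing notes. Both samples are labelled wild type, although the deposited names carry a wild-type and a knockout abbreviation. Cells had at least 2500 UMIs, 500 genes and at most 10% mitochondrial UMIs. No doublet caller was run; 1 naive and 0 Listeria gated cells had over 2 times their library's median UMIs. Counts were summed per gate and library. Ratios have exact binomial-split intervals, shares exact Clopper-Pearson intervals, and a count of 0 was set at 3 counts. With 1 library per group there was no test. Neighbours came from 2000 variable genes, 30 components and 15 neighbours (scikit-learn 1.9.0). Scaling alternatives used edgeR 4.0.16 and DESeq2 1.42.0, for factors only. Positions are from GENCODE vM21, with 30934 of 31053 identifiers matched. The ratio scripts were tested on simulated data that held counting error only, without differences between cells. There, 0.235% (naive) and 9.64% (Listeria) of unchanged genes passed 2-fold either way over progenitors. Over B-lineage cells these shares were 0.104% and 7.76%.

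The gate and the gene lists were chosen with earlier results of these data known. Named genes are the 10 highest and 10 lowest naive ratios per comparison (without gate, mitochondrial, ribosomal, immunoglobulin and sex-linked genes, unnamed transcripts, and genes with over 20% of UMIs in 1 cell), the gate genes and Il7r, and up to 8 members of each of 21 lists plus members past 2-fold in both libraries. A gene among them is not reported here. Alternatives varied the cell limits, the gates, the scaling, the weighting of cells, the low-count filter, the fold and free RNA.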

Additional observations from a re-analysis of the deposited data

Results flagged for a closer look

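Neutrophil genes differed in direction between the libraries in gated over B-lineage cells. S100a8 had a log2 ratio of -5.71 in the Listeria and 2.01 in the naive library, S100a9 -4.28 and 1.86, Ngp -4.00 and 1.38, and Camp at most -2.46 (no UMI in Listeria gated cells) and 1.23. The difference between the libraries was not tested. A single naive gated cell held 94.6% of the naive S100a8 UMIs, 93.9% of S100a9, 91.1% of Camp and 96.1% of Ngp, and without this cell the naive S100a8 ratio was -2.20.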

How the results depend on the processing

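No paired analysis was possible because each group is 1 library, and for the same reason no replicate could be left out. The log2 ratio of the shares stayed between -1.84 and -2.79 under its 10 alternatives. Thinning cells to 2500 UMIs before the gates gave a naive share of 0.816%, with 44 genes higher than in progenitors, 183 higher than in B-lineage cells and 121 higher in Listeria than in naive gated cells. A sum of at least 1 gave shares of 3.89% and 0.992%, with 30 higher and 3 lower than in progenitors and 114 higher and 77 lower in Listeria. No Flt3 criterion gave 4.16% and 0.971%, with 62 higher in Listeria. Without cells with plasmacytoid genes the shares were 0.741% and 0.166%, with 39 higher than in progenitors and 178 higher in Listeria. Progenitors without Dntt gave 142 higher and 99 lower. TMM gave 195 higher and 621 lower than in B-lineage cells and 178 higher in Listeria, and size factors 198 higher in Listeria. A minimum of 50 CPM gave 19 lower than in progenitors, 183 higher and 247 lower than in B-lineage cells, and 151 higher and 95 lower in Listeria. No CPM minimum gave 95 lower than in progenitors, 541 higher than in B-lineage cells and 521 lower in Listeria. At 1.5-fold the counts were 213 and 121 against progenitors, 628 and 747 against B-lineage cells, and 996 and 688 between libraries. Chosen after seeing the data, leaving out the 2 Listeria cells richest in plasmacytoid UMIs and the naive cell richest in S100a8 gave 37 genes higher than in progenitors, and leaving out the list-rich cells gave 42. The causes were not tested.

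Of 3180 alternative values of single named genes, 41 changed sign from a main ratio that was past 2-fold. Sign changes of smaller main ratios were not counted, although their values are among the 3180. Thinning gave Notch1 over progenitors -0.05 (Listeria), Ighm over B-lineage cells 2.82 and 4.64, and Tubgcp3 -0.67 and Fam214a 1.42 between libraries. A sum of at least 1 gave Myct1 0.17 and Hlf 0.16 over Listeria progenitors and Sat1 0.04 between libraries. No Flt3 criterion gave Ighm over B-lineage cells 3.43 and 4.36, and Fam214a 0.23. Without cells with plasmacytoid genes, ratios over progenitors were Lgals1 -1.79 (Listeria), Mki67 -0.57 (naive), Top2a -0.90 and -0.97, Bst2 -0.13 and -1.75, and Tyrobp -0.67 (Listeria), with Bst2 -1.18 over Listeria B-lineage cells and Blvrb 1.24 between libraries. Without the 3 cells, Listeria ratios over progenitors were Lgals1 -1.55, Mki67 -0.35, Top2a -1.72 and Bst2 -0.26, and Pmaip1 over B-lineage cells -0.13. Without the list-rich cells, ratios over progenitors were Lgals1 -0.45 and -1.35, Ctsh -1.39, Siglech -1.21, Mki67 -1.41 and -0.14, Top2a -1.43 and -1.52, Bst2 -0.41 and -0.79, Tyrobp -0.56 and -0.14, Cd7 -2.24, Ly6c2 -1.79 and Pmaip1 -0.34 (naive where 1 value is given), and Bst2 over Listeria B-lineage cells was -0.16. Depth limits the Listeria cells most, with 133516 UMIs in all against 876287 in the naive cells.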
